A study of Sus scrofa with 31 samples.

Results

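Levels of 6 stress- and nutrient-responsive genes were followed in stored pig hearts: the sestrins SESN1 and SESN3, the FOXO-induced gene DEPP1, and the alpha-arrestins TXNIP, ARRDC3 and ARRDC4. They were selected by their symbol, with earlier results of these data in view: how each changed from 0 h in every heart, how HOPE compared with SCS at each time, and how the perfused groups compared. For that reason the values of these genes on those contrasts are a description. Counts of members called by the fits across all genes are given beside the share of all genes called, and nothing is read from them. All 6 were among the 21313 genes of the first study arm and all 6 passed its filter on low values. Of the 25149 genes of the second arm, 4 were members (SESN1, DEPP1, ARRDC3 and ARRDC4), and SESN3 and TXNIP were not analysed there.

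The samples were biopsies of pig (Sus scrofa) myocardium. In the first arm 3 hearts were kept under HOPE (pigs 2, 4 and 6) and 3 under SCS (pigs 1, 3 and 5), and each heart was sampled at 0, 12, 24 and 48 h, which gave 24 RNA-seq libraries. In the second arm hearts went through 2 h of normothermic machine perfusion (NMP, warm perfusion outside the body) after storage: 1 library came after 24 h of SCS, and 2 libraries each came after 3, 24 and 48 h of HOPE. SCS usually stands for static cold storage, in which the organ is kept on ice, and HOPE for hypothermic oxygenated perfusion; both are left as abbreviations in the sample labels. Strain, age and sex of the pigs are not given in the sources used here, no group carried an added gene or drug by its labels, and whether the 2 libraries of a perfused group came from separate hearts is not stated, so their spread may be technical.

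Sestrins are stress-inducible proteins that restrain the growth-promoting kinase complex mTORC1 when amino acids are short, and SESN1 is also known as a p53 target and SESN3 as a target of FOXO factors. DEPP1 is another FOXO-induced gene, linked in human cells to autophagy and to the handling of reactive oxygen. TXNIP and ARRDC4 are switched on by the glucose-sensing factors MondoA and ChREBP and both lower glucose uptake, TXNIP by promoting internalisation of glucose transporters and also by binding thioredoxin. ARRDC3, a relative of both, links membrane proteins such as the beta-2 adrenergic receptor to NEDD4-family ubiquitin ligases. These roles come mainly from work on human and mouse cells.

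In the RefSeq table of the Sscrofa11.1 assembly SESN1 (ENSSSCG00000004390) lies on chromosome 1 from 75056731 to 75170374 and SESN3 (ENSSSCG00000037015) on chromosome 9 from 27207239 to 27279205. TXNIP (ENSSSCG00000031262) lies on chromosome 4 from 99348589 to 99351760, ARRDC3 (ENSSSCG00000014156) on chromosome 2 from 98430451 to 98444835, and ARRDC4 (ENSSSCG00000002252) on chromosome 7 from 81656760 to 81669584. DEPP1 (ENSSSCG00000022256) was named in the deposited tables and had no position in that table. The genes thus sit on 5 different chromosomes where a position was known.

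The first-arm libraries held 19722065 to 35099406 reads over genes. The labels call the cell type cardiomyocytes, but the samples are whole tissue: besides the 9 ventricular cardiomyocyte markers, summing to 5.37% to 7.85% of the total in HOPE libraries and 1.22% to 6.29% in SCS libraries, markers of endothelial cells, fibroblasts, pericytes, macrophages and lymphocytes were all present. In such tissue, fewer cells of a type and less RNA per cell cannot be told apart. Mitochondrially encoded transcripts moved with storage in SCS: between 0 and 48 h their share of all reads changed by −1.43, −5.64 and −7.98 percentage points in HOPE pigs 2, 4 and 6, and by 12.1, 21.3 and 29.9 points in SCS pigs 1, 3 and 5, reaching 82.4% in the 48 h library of pig 5. Because of this, the way libraries are scaled matters. Dividing by total reads instead of the authors' size factors put the median of all genes at −0.99 (log2) in SCS at 48 h against 0 h and at 1.12 in HOPE against SCS at 48 h, where the authors' scaling put it at −0.03 and 0.02.

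With the authors' scaling SESN3 had the largest mean log2 difference between the storage conditions of the 6 members at 48 h. Those of ARRDC4 and TXNIP were larger at 0 and 12 h, and that of DEPP1 was larger at 12 and 24 h. At 48 h the SESN3 level was below the 0 h level in each HOPE heart and above it in each SCS heart. In HOPE pig 2 it stood at 213, 216, 159.5 and 119.8 normalised counts at 0, 12, 24 and 48 h. The same biopsies of HOPE pig 4 had 220.1, 181, 191 and 163 normalised counts, and those of HOPE pig 6 had 239.6, 188, 248 and 174. All 3 HOPE hearts thus had their lowest SESN3 level at 48 h.

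Among the SCS hearts, SESN3 stood at 317, 277, 388 and 335 normalised counts in pig 1. In pig 3 it was 314, 326, 431 and 621, and in pig 5 it was 230.5, 219, 351 and 523. At 12, 24 and 48 h every HOPE level lay below every SCS level, narrowly so at 12 h, while at 0 h the highest HOPE level (239.6) lay above the lowest SCS level (230.5). Such separation with HOPE below held for 12.0% of all genes at 12 h, 12.9% at 24 h and 10.2% at 48 h.

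Ordered by mean, the SESN3 groups ran from HOPE at 48 h (152.5 ± 28.9 normalised counts, SD, n = 3) through HOPE at 12 h (195 ± 18.5), 24 h (199 ± 44.7) and 0 h (224 ± 13.9) to SCS at 12 h (274 ± 53.3), 0 h (287 ± 49.0), 24 h (389.8 ± 40.3) and 48 h (493 ± 145). Neighbours in this order overlapped except at 2 places: HOPE at 48 h lay wholly below HOPE at 12 h, and SCS at 24 h lay wholly above SCS at 0 h.

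**Figure D1:**
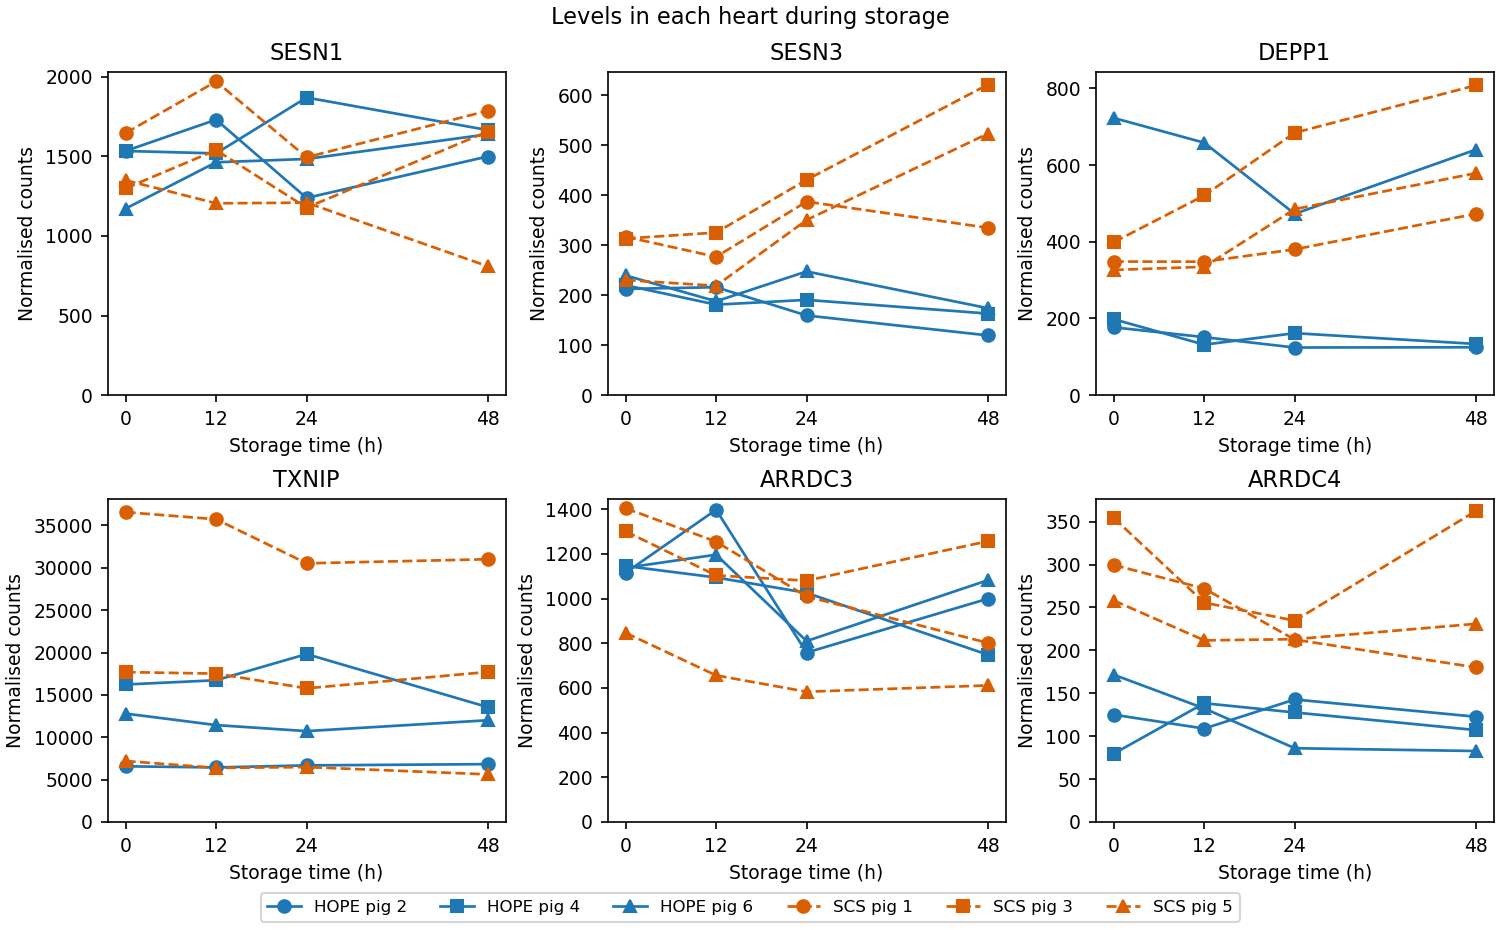
Level of each gene (y axis, normalised counts, linear from 0) against storage time (x axis, hours) in the 3 HOPE hearts (solid blue lines) and the 3 SCS hearts (dashed orange lines), 1 line per pig. SESN3 fans out with time, ARRDC4 runs in separate bands below and above about 175 normalised counts, and the TXNIP lines are nearly flat but far apart from heart to heart. All values use the authors' scaling.

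Each heart is its own baseline when changes are taken from its 0 h biopsy. At 48 h SESN3 had changed by −0.82, −0.43 and −0.46 in HOPE pigs 2, 4 and 6 and by 0.08, 0.98 and 1.18 in SCS pigs 1, 3 and 5, on the log2(normalised count + 1) scale used for all changes of the first arm. The direction was thus opposite in the 2 conditions, although pig 1 had barely moved. Dividing by total reads kept the HOPE hearts below 0 h but gave −0.52, 0.23 and −0.39 in the SCS hearts, where the median gene stood at −0.99. With mitochondrially encoded genes left out of the total, the SCS values were −0.22, 0.84 and 1.03.

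HOPE minus SCS, the SESN3 difference on the log2 scale was −0.34, −0.47, −0.98 and −1.66 at 0, 12, 24 and 48 h (SE 0.23 at each time). Dividing by total reads gave −0.22, 0.00, −0.60 and −0.54, beside a median gene at 0.11, 0.47, 0.39 and 1.12. That scaling moves all genes of a library by about the same log2 amount. The distance of SESN3 from the median gene is thus nearly the same under either scaling by construction. It is therefore no check of the SESN3 difference.

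DEPP1 shared with SESN3 the direction of its 48 h changes but differed from it in level between hearts. In HOPE pig 2 its level was 177, 151, 124 and 125 normalised counts at 0, 12, 24 and 48 h, and in HOPE pig 4 it was 198, 132, 162 and 134. HOPE pig 6 stood apart, with 723, 658, 473 and 640.1 normalised counts. The levels in pigs 2 and 4 were below every SCS level, and those of pig 6 were above the SCS hearts at 0 and 12 h and within their range at 24 and 48 h.

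In SCS pig 1 DEPP1 stood at 348, 348, 380.3 and 473 normalised counts. Pig 3 had 399, 521, 684 and 808, and pig 5 had 327, 335, 485 and 579. All 3 SCS hearts had their highest DEPP1 level at 48 h. Group means ran from 253 ± 191 in HOPE at 24 h to 619.9 ± 171 in SCS at 48 h (SD, n = 3 each), and because of pig 6 the ranges of HOPE and SCS overlapped at each time.

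Relative to its own 0 h level, DEPP1 had changed by −0.51, −0.29 and −0.61 at 24 h and by −0.50, −0.56 and −0.18 at 48 h in HOPE pigs 2, 4 and 6. In SCS pigs 1, 3 and 5 the changes were 0.13, 0.78 and 0.57 at 24 h, against 0.44, 1.02 and 0.82 at 48 h. HOPE pig 6, whose level stood apart, thus moved in the same direction as the other HOPE hearts. With total-read scaling the HOPE hearts stayed below 0 h at both times, but the SCS hearts gave −0.16, 0.26 and −0.75 at 48 h. Leaving mitochondrially encoded genes out of the total gave 0.14, 0.88 and 0.68 in the SCS hearts at 48 h, and −0.17, 0.70 and 0.52 at 24 h.

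The pattern of all 3 HOPE hearts below and all 3 SCS hearts above their own 0 h level was met by DEPP1 at 24 h, where 2.08% of all genes met it, and by SESN3 and DEPP1 at 48 h, where 2.32% did. Since the members were chosen on these changes, nothing is read from the counts. Within a condition, the changes of SESN3 and DEPP1 from 0 h had a Pearson r of 0.06 over the 9 HOPE values and 0.86 over the 9 SCS values, each from 3 hearts at 3 times that share a 0 h library. In HOPE pig 6 at 24 h, for one, SESN3 was at 0.05 and DEPP1 at −0.61.

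HOPE minus SCS, DEPP1 differed by −0.28, −0.73, −1.24 and −1.45 at 0, 12, 24 and 48 h on the log2 scale (SE 0.65). Leaving out 1 pig at a time gave ranges of −0.93 to 0.09, −1.47 to −0.31, −1.82 to −0.86 and −2.22 to −1.04 at these times, the lowest of each range being without HOPE pig 6. With total-read scaling the differences were −0.15, −0.26, −0.86 and −0.34, beside the median gene at 0.11, 0.47, 0.39 and 1.12. Endothelial markers were also high in that heart: the summed level of 8 endothelial markers had a median of 32422 normalised counts in pig 6, against 22631 in pig 2 and 16326 in pig 4, and it ran from 12684 to 52813 in the SCS libraries. Its part in the DEPP1 level was not tested.

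**Figure D2:**
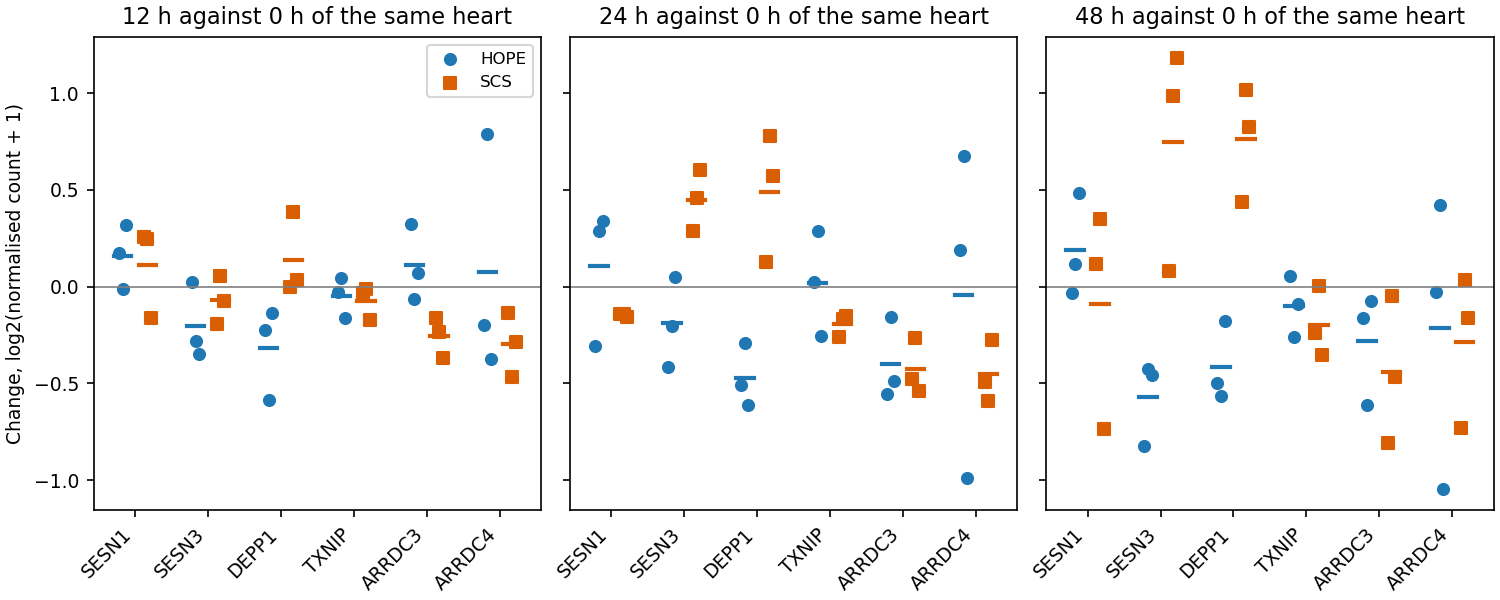
Change of each gene from the 0 h level of the same heart (y axis, log2 of normalised count + 1) at 12, 24 and 48 h, with HOPE hearts as blue circles, SCS hearts as orange squares and short lines for the mean of 3 hearts. At 48 h SESN3 and DEPP1 lie below 0 in all HOPE hearts and above 0 in all SCS hearts with the authors' scaling; with total-read scaling only 1 of 3 SCS hearts lies above 0 for each gene.

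SESN1 behaved differently from SESN3. Its level was 1171 to 1869 normalised counts in HOPE libraries and 809.8 to 1969 in SCS libraries, and the 2 conditions overlapped at each time. In HOPE it averaged 1413 ± 209, 1569.9 ± 141, 1529.97 ± 318 and 1600.2 ± 89.2 normalised counts at 0, 12, 24 and 48 h, and in SCS 1431 ± 188, 1571 ± 383, 1293 ± 174 and 1417 ± 530 (SD, n = 3). The lowest of the 24 levels was the 48 h library of SCS pig 5, the library with the highest mitochondrial share. The changes from 0 h at 48 h were −0.03, 0.12 and 0.48 in HOPE pigs 2, 4 and 6 and 0.12, 0.35 and −0.74 in SCS pigs 1, 3 and 5, with no common direction. With total reads the SCS values at 48 h were −0.48, −0.41 and −2.31, where the median gene also fell. Without mitochondrially encoded genes in the total they were −0.18, 0.21 and −0.88. At 24 h all 3 SCS hearts were below their 0 h level, by −0.14, −0.14 and −0.16, as were 15.0% of genes.

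With the authors' scaling TXNIP varied between hearts far more than within them. In HOPE pig 2 its level was 6574, 6439, 6682 and 6828 normalised counts at 0, 12, 24 and 48 h, in HOPE pig 4 it was 16230.3, 16731, 19819.8 and 13564, and in HOPE pig 6 it was 12796, 11438, 10726 and 12007. In SCS pig 1 it stood at 36566, 35733, 30532 and 31012, in pig 3 at 17689.8, 17512, 15777 and 17708, and in pig 5 at 7193, 6383, 6481 and 5622. The hearts with the highest and the lowest mean, pigs 1 and 5 at 33461 and 6420 normalised counts, were both SCS hearts. HOPE and SCS ranges overlapped at each time, and no 2 neighbouring groups in the order of means were separated.

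Within a heart the highest TXNIP level was 1.06 to 1.46 times the lowest. The SD of the 6 heart means was 0.91 on the log2 scale, and the pooled SD over the 4 times within hearts was 0.13, a ratio of 6.74, which was larger than in 99.9% of the 14141 tested genes. Of its parts, 94.7% of genes varied less between hearts, and 4.31% varied less within them. As the members were chosen on changes within hearts and on HOPE against SCS, nothing is read from these shares. ARRDC2, an alpha-arrestin that is no member, had a ratio of 4.60, larger than in 99.8% of genes.

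The other members had ratios between 0.99 and 2.90, where the median gene had 1.13. DEPP1 had the second highest at 2.90 (SD 0.93 between hearts and 0.32 within), followed by ARRDC4 at 1.93 (0.63 and 0.32), SESN3 at 1.33 (0.50 and 0.38), ARRDC3 at 1.03 (0.29 and 0.28) and SESN1 at 0.99 (0.21 and 0.22). Heart and storage condition are nested, so the spread between hearts includes any difference between HOPE and SCS.

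**Figure D3:**
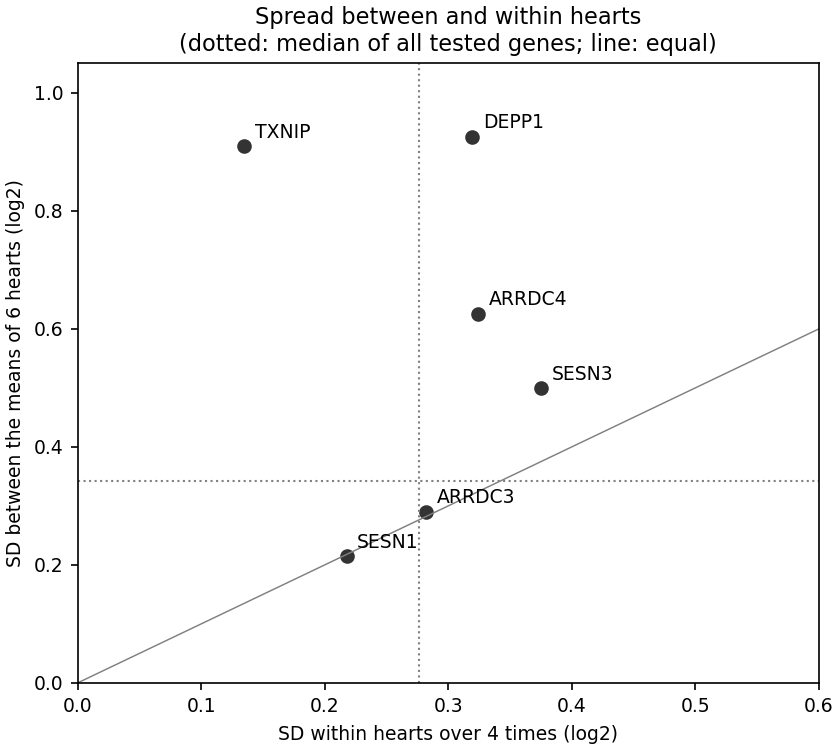
SD between the means of the 6 hearts (y axis) against the SD over 4 times within hearts (x axis), 1 point per gene. Both are on the log2 scale with the authors' scaling. Dotted lines mark the medians of all tested genes (0.34 between and 0.28 within) and the diagonal marks equal spread; TXNIP is far above it at 0.91 and 0.13, and SESN1 and ARRDC3 lie on it.

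ARRDC4 separated the conditions from the start. In HOPE pig 2 it stood at 125, 109, 143 and 123 normalised counts at 0, 12, 24 and 48 h, in HOPE pig 4 at 79.6, 138, 128 and 107, and in HOPE pig 6 at 172, 132, 86.0 and 82.7. In SCS pig 1 it stood at 299, 272, 213 and 180.3, in pig 3 at 354, 256, 235 and 362, and in pig 5 at 258, 212, 213 and 231. The highest of the 12 HOPE levels (172) was below the lowest of the 12 SCS levels (180.3), a pattern met by 22 of 14141 genes, or 0.156%. It depended on the scaling, with 11 of 12 HOPE levels below the lowest SCS level when total reads without mitochondrial genes were used and 0 of 12 when total reads were used. As the members were chosen on HOPE against SCS at each time, nothing is read from the share of 0.156%.

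HOPE minus SCS, ARRDC4 differed by −1.33, −0.96, −0.91 and −1.26 at 0, 12, 24 and 48 h (log2, SE 0.28). Total-read scaling gave −1.20, −0.48, −0.53 and −0.15, beside the median gene at 0.11, 0.47, 0.39 and 1.12. The difference of −1.33 was thus already there in the biopsies taken at 0 h, where all 3 HOPE levels lay below all 3 SCS levels, as they did for 6.19% of genes. The changes from 0 h at 48 h had no common direction in HOPE (−0.03, 0.42 and −1.04 in pigs 2, 4 and 6) or in SCS (−0.73, 0.03 and −0.16 in pigs 1, 3 and 5). With total reads, which also lowered the median gene in SCS at 48 h, the 3 SCS values were all below 0, at −1.33, −0.72 and −1.72. Without mitochondrial genes in the total they were −1.03, −0.11 and −0.31. At 24 h all 3 SCS hearts were below their 0 h level, by −0.49, −0.59 and −0.28, as were 15.0% of genes.

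Marker sums of other cell types also differed between the conditions, with overlapping ranges. T and NK cell markers summed to 256 to 1192 normalised counts in HOPE libraries, against 803 to 1996 in SCS libraries. Pericyte and smooth muscle markers summed to 7667 to 19746 in HOPE libraries, against 15893 to 28843 in SCS libraries. Their part in the ARRDC4 difference was not tested.

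ARRDC3 was the member that stood below its 0 h level in every heart at 24 and at 48 h, a pattern met by 29 of 14141 genes, or 0.205%. As the members were chosen on these changes, nothing is read from that share. In HOPE pigs 2, 4 and 6 ARRDC3 changed by −0.56, −0.16 and −0.49 at 24 h and by −0.16, −0.61 and −0.07 at 48 h. In SCS pigs 1, 3 and 5 it changed by −0.48, −0.27 and −0.54 at 24 h and by −0.81, −0.05 and −0.47 at 48 h. All 12 of these values were also below 0 with total-read scaling, with or without mitochondrial genes. Both scalings moved every SCS value further down, and total reads lowered the median gene in SCS at 48 h too. In the SCS hearts the signs under these scalings are thus no separate support for a fall. Its level at 0 h averaged 1133 ± 15.4 normalised counts in HOPE and 1184 ± 297 in SCS, and at 48 h 943 ± 173 in HOPE and 889.6 ± 331 in SCS (SD, n = 3). HOPE minus SCS it differed by −0.03, 0.34, −0.00 and 0.13 on the log2 scale at 0, 12, 24 and 48 h (SE 0.29). With total-read scaling the 48 h difference was 1.25 for ARRDC3 and 1.37 for SESN1, where the median gene stood at 1.12. These were the 2 members called under that scaling, which called 8122 genes there, so nothing is read from the 2 calls.

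**Figure D4:**
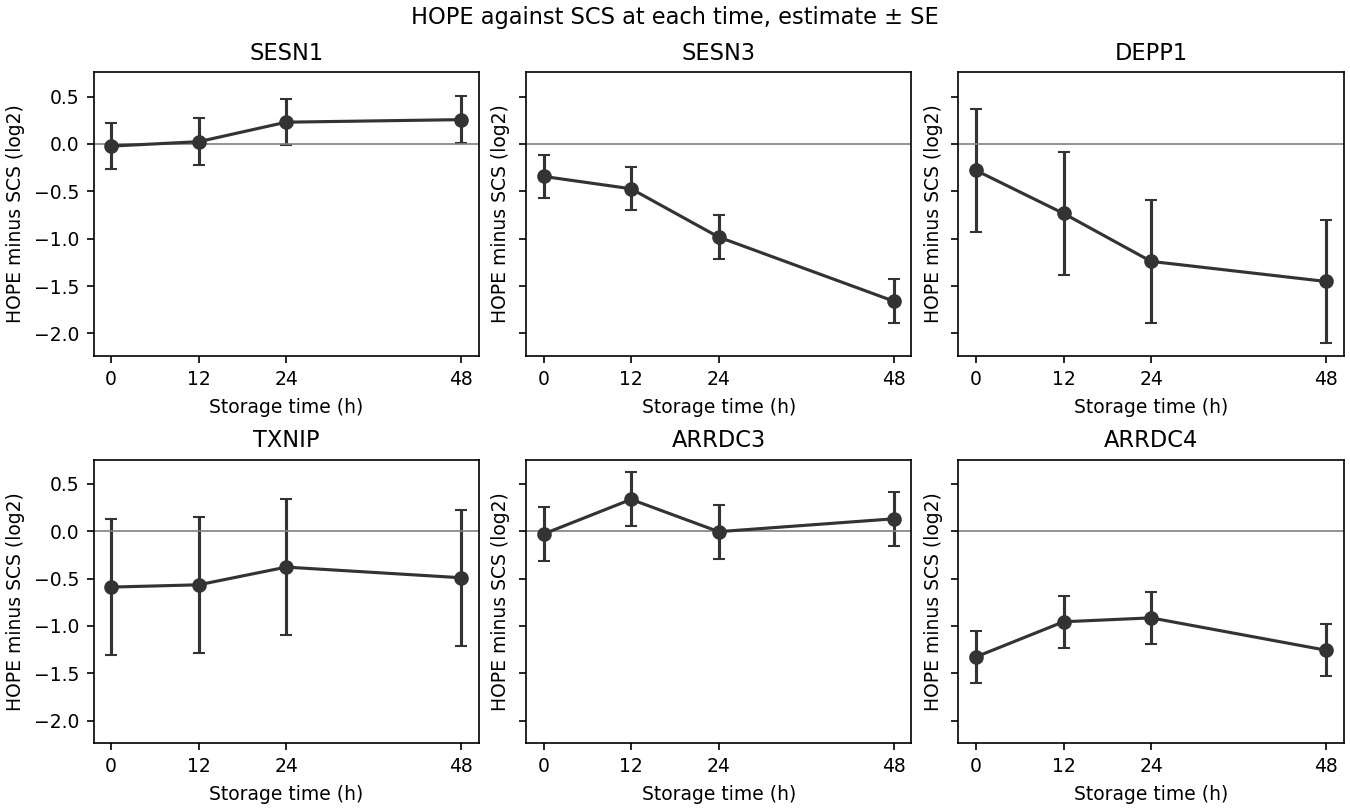
HOPE minus SCS difference of each gene (y axis, log2 of normalised count + 1, points with bars of 1 SE from the limma fit over 24 libraries) at each storage time (x axis, hours). With the authors' scaling SESN3 moves from −0.34 to −1.66 and DEPP1 from −0.28 to −1.45, while ARRDC4 lies between −0.91 and −1.33 throughout; with total-read scaling the SESN3 estimate at 12 h is 0.00 and at 48 h −0.54, and TXNIP turns to 0.01 at 24 h and 0.63 at 48 h.

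The members were chosen on the contrasts counted next, so these counts are no evidence about them. In a limma fit across all 14141 tested genes (Benjamini-Hochberg adjusted p under 0.05), no member was called in any comparison of a later time with 0 h, where 0.0% of genes were called in each. At an unadjusted p under 0.05 there were 0 or 1 of 6 members in each of these comparisons, and edgeR and DESeq2 on the recovered reads called 0 members in these comparisons and in those of the changes between conditions. The same fit called 1 member, SESN3, in HOPE against SCS at 24 h (2.04% of all genes) and 2, SESN3 and ARRDC4, at 48 h (6.25%), all lower in HOPE. At 0 h it called 0 members (0.0% of genes) and at 12 h 0 members (0.0141%). At 0 h and at 12 h 1 member was at an unadjusted p under 0.05; DESeq2 called 1 at 0 h and 0 at 12 h, and edgeR 0 at both.

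With the pig as block, 2 members were called in SCS at 48 h against 0 h, SESN3 and DEPP1, both higher, where 2.18% of genes were called. DEPP1 was then also called in the comparison of the 48 h changes between conditions (0.127% of genes). For HOPE against SCS the block was a random effect with 1 correlation within pigs, 0.44, for all genes. It called SESN3 at 24 h (9.87%), and SESN3, DEPP1 and ARRDC4 at 48 h (11.5%). That shared correlation may be too low for DEPP1, whose ratio of spread between to within hearts was 2.90. Without SCS pig 5, which held the library of highest mitochondrial share, 0 members were called at 24 h and 1 (SESN3) at 48 h. Over all genes 2 and 5 were then called. Without HOPE pig 6, DEPP1 was called as well: SESN3 and DEPP1 at 24 h, and SESN3, DEPP1 and ARRDC4 at 48 h. Over all genes 2407 and 3165 were then called. ARRDC4 lost its call at 48 h also without HOPE pig 2, HOPE pig 4 or SCS pig 3, where 10, 11 and 51 genes were called. SESN3 lost its call at 24 h without any 1 of these 3, where 7, 2 and 2 genes were called. As the calls over all genes moved too, nothing is read about the members from these moves.

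The genes most like each member were ranked by Pearson r over the 24 libraries, among 9190 named genes with a mean of at least 100 normalised counts. The libraries share hearts, so r carries no p. Nearest to SESN3 were S100A6 (r 0.87), ANP32B (0.87) and S100A11 (0.86). Nearest to DEPP1 were NFKBIA (0.95), an inhibitor of NF-kappa-B, RPS9 (0.94), a ribosomal protein, and DDIT4 (0.94), another stress-induced inhibitor of mTORC1.

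TXNIP was most like PDK4 (r 0.93), the kinase that shuts pyruvate out of the citric acid cycle, followed by KLF11 (0.83) and LYZ (0.80). For ARRDC4 the nearest were GPR137B (0.88), DRAM1 (0.87) and WWTR1 (0.87), and for ARRDC3 they were FAM13A (0.78), SLC6A4 (0.73) and SLC43A2 (0.69). SESN1 was nearest to DDO (0.82), UBE2D1 (0.82) and PTGES3 (0.81). None of the 18 places was taken by another member.

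SESN2, the sestrin with the best described leucine-sensing role and no member, was scarce in stored hearts. Its level was 12.3 to 40.5 normalised counts in HOPE libraries and 21.2 to 50.4 in SCS libraries, with medians of 25.1 and 32.6. ARRDC2 resembled DEPP1 in that pig 6 stood apart: it averaged 1788 normalised counts over the 4 times in HOPE pig 6, against 767 and 675 in HOPE pigs 2 and 4, and 1765, 1781 and 1056 in SCS pigs 1, 3 and 5.

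Around the members, 5 lists of pathway genes were counted in the same limma fit. Of their 66 tested genes, 0 passed in any comparison of a later time with 0 h, in HOPE or in SCS, and edgeR and DESeq2 likewise made 0 calls among them. The number at an unadjusted p under 0.05 was 0, 0 and 1 in HOPE and 0, 2 and 3 in SCS at 12, 24 and 48 h, and the fit with the pig as block called 1 FOXO-list gene lower in SCS at 48 h. The lowest gene of the mTORC1 list there was WDR59, with a log2 change of −0.60 ± 0.27 (SE), and the highest was DEPDC5 at 0.49 ± 0.29.

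Between conditions, 3 of the 66 list genes passed at 24 h and 8 at 48 h, all of them higher in HOPE. The same fit called 2.04% and 6.25% of all genes at these times, and 0 and 0 genes with only the groups compared. With the pig as block the calls were 13 higher and 4 lower in HOPE at 24 h, and 15 higher and 0 lower at 48 h, where that fit called 9.87% and 11.5% of all genes. At 0 h and 12 h 0 passed, with 5 and 17 at an unadjusted p under 0.05 and 0 called by edgeR or DESeq2. Of the 17 sestrin partners and mTORC1 amino acid sensing genes tested, 1 was higher and 0 lower at 24 h, and 3 were higher and 0 lower at 48 h, with a list median of 0.23 at 48 h against 0.02 for all genes. The block gave 3 higher and 1 lower at 24 h, and 3 higher at 48 h. WDR59, a subunit of the GATOR2 complex that sestrins bind, averaged 218 ± 42.7 normalised counts in HOPE and 101 ± 31.8 in SCS at 48 h (SD, n = 3 each), a log2 difference of 1.14 ± 0.27 (SE; limma adjusted p 0.027). MTOR, the kinase itself, averaged 1479.8 ± 450 in HOPE and 698 ± 235 in SCS at that time, a difference of 1.08 ± 0.25 (limma adjusted p 0.025).

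The list of glucose sensing, thioredoxin and glucose transport had 11 tested genes, of which 1 was higher and 0 lower at 24 h and the same numbers at 48 h; the block gave 4 higher and 1 lower at 24 h and 4 higher at 48 h. The list median was 0.33, 0.67, 0.88 and 0.98 over the 4 times, beginning with 0 h. For the change from 0 to 48 h, HOPE minus SCS, it was 0.29, with 0 genes called by limma, edgeR or DESeq2 and 1 at an unadjusted p below 0.05. The gene that passed was SLC2A4 both times, the insulin-regulated glucose transporter GLUT4. At 24 h it averaged 3574 ± 209 normalised counts in HOPE and 1577 ± 263 in SCS, a log2 difference of 1.19 ± 0.24 (limma adjusted p 0.028). At 48 h it averaged 3789 ± 495 in HOPE and 1672 ± 720.3 in SCS, a difference of 1.26 ± 0.24 (limma adjusted p 0.015). ARRDC4, a member that lowers glucose uptake, stood at −1.26 at 48 h, but already at −1.33 at 0 h. TXNIP, a member with the same role, stood at −0.49 at 48 h. A link of these members with SLC2A4 was not tested.

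Of 17 FOXO factors and target genes tested, 0 passed at 24 h, where 11 were at an unadjusted p below 0.05, DESeq2 called 4, edgeR 0 and the fit with the block 3, all higher in HOPE under the block. The block called 4 at 48 h, and the list median was 0.20, 0.44, 0.63 and 0.68 at 0, 12, 24 and 48 h. In the fit without the block, at 48 h 2 were higher in HOPE and 0 lower: catalase (CAT), which averaged 9946 ± 1268 normalised counts in HOPE hearts and 4309 ± 1752 in SCS hearts (limma adjusted p 0.024), and KLF15, which averaged 594 ± 91.7 in HOPE hearts and 321 ± 98.3 in SCS hearts (limma adjusted p 0.041). SESN3 and DEPP1, both known FOXO targets, stood on the other side, with log2 differences of −1.66 and −1.45 at that time. Of the 12 p53 target genes 1 was higher and 0 lower at both times: TIGAR, a regulator of glycolysis, differed by 1.06 ± 0.24 at 24 h (limma adjusted p 0.037) and 1.02 ± 0.24 at 48 h (0.027). For this list the block gave 1 higher and 2 lower at 24 h and 2 higher at 48 h, and DESeq2 called 4 at 24 h and 1 at 48 h. Of 9 other arrestins and NEDD4-family ligases 0 passed at 24 h, where 3 were at an unadjusted p below 0.05 edgeR and DESeq2 called 0 and the fit with the block called 2, and the ubiquitin ligase WWP2 was higher at 48 h, by 0.71 ± 0.19 (limma adjusted p 0.040).

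In the second arm the library after SCS stood apart from the 6 after HOPE before any single gene is considered. Its 8 measured ventricular cardiomyocyte markers summed to 3524 TPM, against 49200 to 81057 TPM in the HOPE libraries, and all 8 were above 0. Its 3 red cell markers summed to 6161 TPM, against 34.2 to 3125, and its 5 fibroblast markers to 2592 TPM, against 533 to 1149. The median gene was lower by −1.12 (log2 of TPM + 1) in it than after 24 h of HOPE, and limma called 54.2% of 4388 tested genes between them. As there was 1 such library, its differences have no replicate of their own, and the limma fit assumes that it would vary like the HOPE groups; the part of its composition in what follows was not tested.

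DEPP1 was highest in that library, at 249.8 TPM, against 52.9 and 52.9 TPM in the libraries after 24 h of HOPE, 48.1 and 77.5 after 3 h, and 83.1 and 20.8 after 48 h. The SCS value was thus 4.72 times the mean after 24 h of HOPE and 3.01 times the highest HOPE library. The log2 difference from 24 h of HOPE was 2.22 ± 0.71 (SE), or 3.21 after quantile normalization, which brings the median gene to 0.02. Among the HOPE libraries DEPP1 showed no trend with storage time: the 2 libraries after 48 h were the highest and the lowest of the 6. DEPP1 was the 1 of 3 tested members that limma called between the libraries after 24 h of SCS and of HOPE, beside the 54.2% of all genes, from which nothing is read.

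ARRDC3 and ARRDC4 were lowest after the shortest HOPE storage. ARRDC3 stood at 12.8 and 7.85 TPM after 3 h, 34.2 and 24.1 TPM after 24 h and 21.3 and 19.2 TPM after 48 h. ARRDC4 stood at 8.84 and 5.50 TPM after 3 h, 36.4 and 26.8 after 24 h and 10.4 and 20.4 after 48 h. Neither gene's levels after 3 h overlapped with those after 24 or 48 h, and those after 24 h were above those after 48 h for both. On the log2 scale ARRDC3 differed by 1.43 and ARRDC4 by 2.01 at 24 h against 3 h (SE 0.32 and 0.39), and by 0.94 and 0.97 at 48 h against 3 h, where the median gene differed by 0.22 and 0.02. No member was called in these comparisons, and neither was any other gene (0.0% in each), nor was a member called between 48 and 24 h (0.0684%). Of 3 tested members, 2 were at an unadjusted p under 0.05 against 3 h at each time and 1 at 48 h against 24 h, counts from which nothing is read.

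After SCS and NMP the 2 arrestins parted. ARRDC3 was at 34.6 TPM, next to the 34.2 and 24.1 TPM after 24 h of HOPE, while ARRDC4 was at 13.4 TPM, below the 36.4 and 26.8 TPM after 24 h of HOPE. The log2 differences from 24 h of HOPE were 0.26 ± 0.39 for ARRDC3 and −1.16 ± 0.48 for ARRDC4, beside the median gene at −1.12. After quantile normalization they were 1.43 and −0.07.

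SESN1 was low throughout, at 7.19 TPM after SCS, 7.80 and 10.1 TPM after 3 h of HOPE, 5.48 and 12.2 after 24 h and 4.95 and 9.41 after 48 h. The groups overlapped, and with a mean of 8.16 TPM it fell under the filter of 10 TPM and was not tested. Per transcript length, DEPP1 was the most abundant of the 4 measured members in each perfused library. After 3 h of HOPE, DEPP1 averaged 62.8 ± 20.8 TPM (SD, n = 2), and ARRDC3 (10.3 ± 3.52), SESN1 (8.97 ± 1.65) and ARRDC4 (7.17 ± 2.36) followed well below it, each overlapping the next. After 24 h of HOPE the order was DEPP1 (52.9 ± 0.013), ARRDC4 (31.6 ± 6.77), ARRDC3 (29.2 ± 7.17) and SESN1 (8.83 ± 4.74), where ARRDC4 and ARRDC3 overlapped and the others did not.

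SESN2, which is no member, ranged more widely over the perfused libraries than SESN1. It was at 5.93 TPM in the library after SCS, and at 3.44 and 2.34 TPM after 3 h of HOPE, 29.4 and 19.4 TPM after 24 h and 98.2 and 22.6 TPM after 48 h. All 4 libraries after 24 or 48 h of HOPE were thus above both libraries after 3 h and above the SCS library. With 2.34 to 5.93 TPM in the SCS library and those after 3 h of HOPE, it reached the filter's mean of 10 TPM through the later HOPE libraries, so these values are a description.

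**Figure D5:**
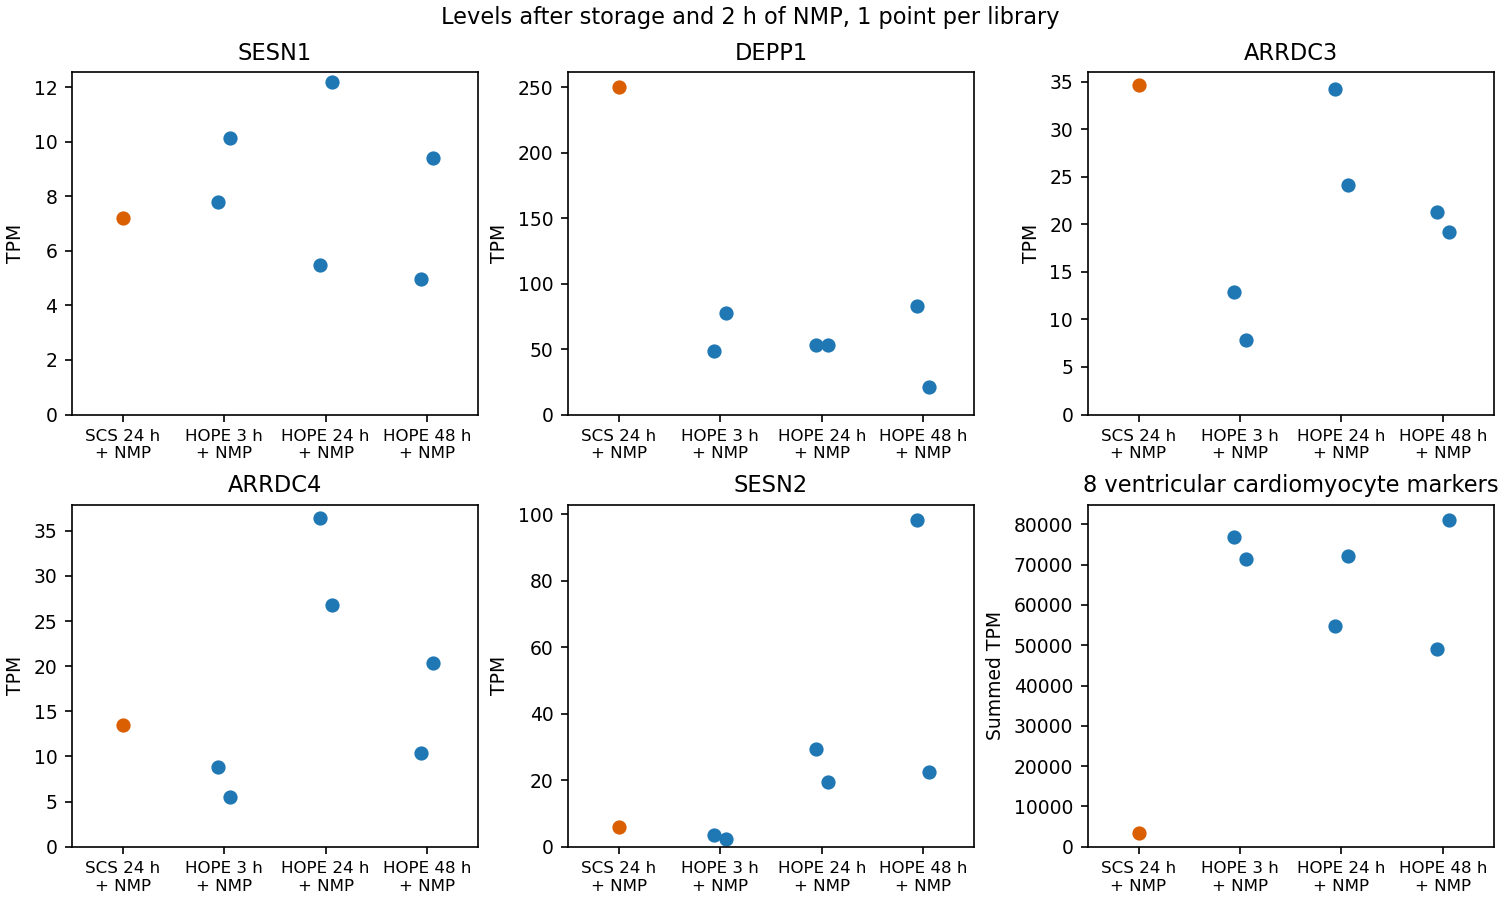
Levels after storage and 2 h of NMP (y axis, TPM, linear from 0), 1 point per library, for the 4 measured members, SESN2 and the sum of 8 ventricular cardiomyocyte markers. The SCS library (orange, left) has the highest DEPP1 level, 249.8 TPM, and the lowest marker sum, 3524 TPM; among the HOPE libraries (blue) ARRDC3, ARRDC4 and SESN2 are lowest after 3 h.

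Other list genes in the perfused hearts were counted in the same way, with fewer of them measured. Between 24 h of SCS and of HOPE, 0 of the 3 tested other arrestins passed (0 at an unadjusted p under 0.05), 1 of 5 glucose and thioredoxin genes was lower, 2 of 4 mTORC1 genes were lower, 6 of 11 FOXO genes were lower and 2 of 4 p53 genes were lower after SCS, and 0 were higher. All genes were called at a share of 54.2% in this comparison, so these counts are not a result about the lists. Several of these sat near the median gene of −1.12, among them TXN2 at −1.10 and SQSTM1 at −1.06. The FOXO targets furthest down were TRIM63, a muscle ubiquitin ligase, at −5.02 ± 0.37 (limma adjusted p 2.7e-04), and PDK4 at −3.49 ± 0.92 (limma adjusted p 0.015), so that DEPP1 at 2.22 lay on the other side of these FOXO targets. TRIM63 is itself a gene of muscle cells, whose markers were low in that library. In the HOPE comparisons over storage time 0 of 27 tested list genes passed, with 2 at an unadjusted p under 0.05 at 24 h against 3 h, 5 at 48 h against 3 h and 0 at 48 h against 24 h.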

How the data were processed

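Pig myocardial biopsies were profiled by poly(A) RNA-seq, with another library kit in each arm, per the labels' protocols, and tests were made only within an arm. The deposited first-arm values are a signal: read counts of genes that the authors scaled by a size factor for each library, as the file headers and the values show. For 100% of them, division by the step of the library gave a whole number (tolerance 1e-06) and so the reads behind them, 19722065 to 35099406 reads per library. The second-arm table carries the same name, but every deposited column adds up to 1 common total and no step of whole reads was found; the authors' values were therefore taken as TPM, which are scaled by gene length and keep no depth. Its 11 columns that match no sample here were not used. Aligners named in the submitters' processing notes are STAR 2.5.2b and HISAT2 2.2.1, with featureCounts 2.0.6 and Subread 1.5.2 for counting, Trimmomatic 0.36 for trimming and the Sscrofa11.1 build; the notes do not tie a tool to an arm, and the sources used here do not give the strand setting.

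Each arm was fitted once with limma 3.58.1 (R 4.3.3; lmFit, contrasts, eBayes with a mean trend) on log2(value + 1), over genes with a mean of at least 10 (14141 and 4388), with Benjamini-Hochberg adjusted p under 0.05 as threshold. This scale understates changes of low genes. The members and the gene lists were chosen with earlier results of these data known. Of each list at most the 2 highest and 2 lowest genes that passed are named, or the highest and lowest if none passed. The fit was checked on simulated data, in which pigs did not differ. Alternatives were other pseudocounts, filters and scalings, edgeR 4.0.16 and DESeq2 1.42.0 on the recovered reads, leaving out libraries, and the pig as block. The block was a fixed term for changes from 0 h. As each pig had only 1 condition, it was a random effect with a shared correlation for HOPE against SCS. Changes from 0 h come from the same pig, as the labels give pig numbers; same-pig libraries deviated together (r of 0.23 to 0.72 over 18 SCS pairs and 0.40 to 0.73 over 18 HOPE pairs). Replicates are pigs in the first arm. Its main fit took the 24 libraries as independent, with 1 mean per group and no pig term, which leaves 16 residual degrees of freedom. The SE and adjusted p of that fit thus do not allow for libraries that share a pig. The second-arm fit has 3 residual degrees of freedom. Spike-in scaling was not used, and no sequences are shown because no sequence table was at hand.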

Additional observations from a re-analysis of the deposited data

Results flagged for a closer look

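Results in which every HOPE heart moved one way from its own 0 h level and every SCS heart the opposite way came from 2 members. For DEPP1 at 24 h the mean change of the 3 HOPE hearts minus that of the 3 SCS hearts was −0.96 on the log2 scale. At 48 h it was −1.17 for DEPP1 and −1.32 for SESN3. The limma fit called 0 members for this difference and 1, DEPP1 at 48 h, with the pig as block; since the members were chosen on these changes, that is no independent test, and in that sense the difference was not tested. With total-read scaling the SCS hearts above their 0 h level were 2 of 3 for DEPP1 at 24 h, 1 of 3 for DEPP1 at 48 h and 1 of 3 for SESN3 at 48 h.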

How the results depend on the processing

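Over 90 member values, 1565 of 1623 values under alternatives moved by less than 1 SD between replicates, 58 moved further and 0 called values changed sign. Only values called in the main fit could count as a change of sign, so that 0 says little. A move under 1 SD could also cross 0: DEPP1 in HOPE against 0 h ranged from −0.59 to 0.18 at 24 h and from −0.53 to 0.24 at 48 h. The values above 0 came from leaving out only the HOPE 0 h library of pig 6. That fit kept the high later libraries of pig 6 without their own baseline. With whole pigs left out the ranges were −0.56 to −0.40 and −0.53 to −0.34. Counts of members called moved as follows. In HOPE against SCS at 24 h (1 in the limma fit), the count was 0 with no filter on low values, 0 with total-read scaling, 0 with only the groups compared in the fit, 2 with DESeq2, 2 without the HOPE 0 h library of pig 6, and 0 to 2 when each pig was left out in turn. At 48 h (2 in the limma fit) it was 0 with only the groups compared, 1 without the SCS 48 h library of pig 5, and 1 to 3 when each pig was left out; with total-read scaling it was again 2, but SESN1 and ARRDC3, in place of SESN3 and ARRDC4. At 0 h (0) it was 1 with DESeq2 (11 of all genes), 1 without the HOPE 0 h library of pig 6 (12), and 0 to 1 with each pig left out. At 12 h (0) it was 0 to 2 with each pig left out, the 2 being without HOPE pig 6, where 1431 of all genes were called. In SCS at 48 h against 0 h (0) it was 2 with total-read scaling, when ARRDC3 and ARRDC4 were lower, and 2 with the pig as block, when SESN3 and DEPP1 were higher; for the comparison of 48 h changes (0) the block gave 1. The block changed no other count of members by more than 1.5 times. In the second arm, the comparison of SCS with HOPE after 24 h (1) gave 2 with a pseudocount of 10, 0 with no filter, 0 with a mean of at least 1, 2 with quantile normalization and 0 to 2 with each library left out. Over all genes, HOPE against SCS called 288 at 24 h and 884 at 48 h; the pig block gave 1396 and 1628, DESeq2 1521 and 1931, total-read scaling 4 and 8122, only the groups compared 0 and 0, and leaving out each pig 2 to 2726 and 5 to 3291. SCS at 48 h against 0 h called 0 genes, 308 with the block, 22 with DESeq2 and 5553 with total-read scaling. After NMP the 2378 genes called between SCS and HOPE became 919 with quantile normalization, and a block on library number, which names no shared animal and whose same-numbered libraries had r from 0.09 to 0.38, gave 6 and 31 genes for 24 h and 48 h against 3 h of HOPE, with 0 in the fit without it. The cause of these moves was not tested. With 3 hearts a condition, 2 libraries or 1 a perfused group, and no depth for the TPM values, small differences of the members could not be resolved.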
